A study of Caenorhabditis elegans with 2 samples.

Results

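Small nucleolar RNA (snoRNA) genes that lie wholly within the span of a protein-coding gene, on either strand, numbered 216 of the 346 snoRNA genes on the nuclear chromosomes of C. elegans. They were chosen from the WBcel235 annotation alone, with no use of any peak. The other 130 nuclear snoRNA genes, which lie between or only partly within protein-coding genes, are the contrast. The 216 genes had a median length of 127 bases and the other 130 genes a median of 135 bases.

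The protein measured was CEH-32, which belongs to the sine oculis family of homeodomain proteins and binds DNA. Chromatin immunoprecipitation followed by sequencing (ChIP-seq) with an antibody against GFP was made on whole hermaphrodites of strain OP516 at the L4 larval stage, 52 hours after larvae synchronised by starvation at L1 were fed. Both biological replicates carried the unc-119(tm4063) III mutation and the transgene wgIs516, in which CEH-32 bears GFP and FLAG at its C terminus. The tagged protein was thus measured, in all tissues together. Any untagged protein from the endogenous gene was not. There was 1 group and no other genotype, stage or treatment. The nuclear peaks numbered 388 in the optimal list, which holds peaks reproducible between the replicates, 10461 in the relaxed list of the pooled replicates, 14045 in the relaxed list of replicate 1 and 14687 in that of replicate 2. Relaxed lists hold many weak regions that were meant as input for a reproducibility analysis. The signal given below is the value that the authors' peak caller put on a peak, and its scale differs between lists. No read counts were in these lists, so the depth behind a peak is unknown.

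SnoRNAs are small stable RNAs that guide the chemical modification of ribosomal and other RNAs in the nucleolus. Box C/D snoRNAs direct ribose methylation by fibrillarin, and H/ACA snoRNAs direct conversion of uridine to pseudouridine by dyskerin. In animals most of them lie in introns, and many are cut out of the spliced host intron with no promoter of their own. In C. elegans some intronic snoRNA genes are known to carry upstream promoter elements. RNA polymerase III starts transfer RNA genes from box A and box B, which lie inside the transcribed sequence, while genes of spliceosomal RNAs are started from a proximal sequence element upstream.

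CEH-32 summits were placed at the 5′ ends of a minority of the hosted genes, and most of the genes with such a summit carried 1 of 2 kinds of sequence just upstream of the snoRNA. One kind holds a match to box A, in some genes followed by box B. The other is a pair of short blocks, called the paired element here. The first 4 sequences are the 100 bases before the first base of the snoRNA, on the strand of the gene, in 4 of the 5 optimal-list members with both boxes. Capitals mark the box A match and, further right, the box B match, and coordinates are those of build WBcel235 (ce11), read from the RefSeq copy of that assembly. The window of C51F7.3 is chrV:12303608-12303707, that of M106.6 is chrII:10840217-10840316, that of F55A11.10 is chrV:11782892-11782991 and that of T03F7.8 is chrV:11314158-11314257, all on the plus strand.
C51F7.3: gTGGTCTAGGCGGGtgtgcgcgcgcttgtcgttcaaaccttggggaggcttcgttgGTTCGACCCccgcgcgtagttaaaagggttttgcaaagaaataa
M106.6: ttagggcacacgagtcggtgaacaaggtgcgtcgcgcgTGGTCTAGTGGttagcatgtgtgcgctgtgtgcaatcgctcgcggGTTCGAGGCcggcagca
F55A11.10: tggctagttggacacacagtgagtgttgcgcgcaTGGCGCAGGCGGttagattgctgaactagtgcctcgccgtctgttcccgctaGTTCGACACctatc
T03F7.8: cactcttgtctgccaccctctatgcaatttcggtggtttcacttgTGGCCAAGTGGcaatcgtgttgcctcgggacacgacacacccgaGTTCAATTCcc

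The paired element is shown in the same way in the 4 members with the highest signals that held it without box A. Capitals mark its 2 blocks, AACNCG and TGTCNG with 5 bases between them, where N is any base. The windows are chrV:8500479-8500578 for ZK994.7, chrV:8349008-8349107 for C08D8.3, chrII:11224082-11224181 for T06D8.11 and chrV:12491180-12491279 for W04D2.7, all on the plus strand. The element lies at nearly the same distance from C08D8.3, T06D8.11 and W04D2.7 and further from ZK994.7.
ZK994.7: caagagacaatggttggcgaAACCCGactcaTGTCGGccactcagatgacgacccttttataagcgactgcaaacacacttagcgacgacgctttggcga
C08D8.3: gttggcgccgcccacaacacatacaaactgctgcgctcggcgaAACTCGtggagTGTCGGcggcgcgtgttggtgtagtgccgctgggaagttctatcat
T06D8.11: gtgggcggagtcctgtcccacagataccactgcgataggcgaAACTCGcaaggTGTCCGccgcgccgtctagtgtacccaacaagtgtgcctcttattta
W04D2.7: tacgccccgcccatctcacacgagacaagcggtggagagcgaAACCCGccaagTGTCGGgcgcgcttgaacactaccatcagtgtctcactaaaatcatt

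A pair of whole genes shows the products. C51F7.3 (chrV:12303708-12303783, plus strand, 76 bases), in intron 4 of 9 of the FERM domain gene frm-7, has the marks of a box C/D snoRNA, with box C (TGATGA) near its start and box D (CTGA) near its end in capitals. W08G11.6 (chrV:16370219-16370355, plus strand, 137 bases), in intron 6 of 9 of W08G11.3, ends like an H/ACA snoRNA, with the ACA box in capitals 3 bases before its end.
C51F7.3 gene: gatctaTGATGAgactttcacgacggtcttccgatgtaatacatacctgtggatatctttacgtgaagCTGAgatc
W08G11.6 gene: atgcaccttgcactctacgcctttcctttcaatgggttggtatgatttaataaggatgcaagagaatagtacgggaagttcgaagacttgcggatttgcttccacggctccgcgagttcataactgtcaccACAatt

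A summit of the pooled relaxed list lay inside or within 100 bp of 47 of the 216 hosted genes, or 21.8% (Wilson 95% interval 16.8% to 27.7%). The same held for 44 of the 130 other snoRNA genes, or 33.8% (26.3% to 42.3%), and for 13.5% of all 46890 nuclear genes. The intervals of the hosted and the other snoRNA genes overlapped at their ends, and both lay above the share of all genes. In the optimal list the share was 16 of 216 hosted genes, or 7.41% (4.61% to 11.7%), against 15 of 130 other snoRNA genes, or 11.5% (7.12% to 18.2%). The share of all nuclear genes was 0.759%. These intervals cover counting error over genes only, no test over genes was made, and neighbouring genes can share a peak: the 16 hosted genes were linked to 15 distinct optimal peaks.

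The lists of the single replicates were read in the same way. In replicate 1, 41 of the 216 hosted genes were linked (19.0%), against 42 of the 130 other snoRNA genes (32.3%) and 17.3% of all nuclear genes. In replicate 2 the hosted genes linked numbered 45 (20.8%), the other snoRNA genes 36 (27.7%), and the share of all nuclear genes was 17.1%. In the single-replicate relaxed lists the hosted genes thus stood near the share of all genes, and they stood apart from it in the optimal list. Links in both replicates were found for 27 hosted genes (12.5%, 8.74% to 17.6%), for 26 other snoRNA genes (20%) and for 8.87% of all nuclear genes. Of the 47 hosted genes linked in the pooled list, 27 were linked in both replicates, 6 in replicate 1 alone, 9 in replicate 2 alone and 5 in neither. Across the 27 hosted genes linked in the pooled list and in both replicates, the signals of the replicates had a Spearman rho of 0.313 and a Pearson r of 0.429. Across the 26 other snoRNA genes linked in both replicates, of which 25 were also linked in the pooled list, the values were 0.465 and 0.453. These are descriptions over genes measured in the same libraries.

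The hosts held fewer summits per length than the snoRNA genes within them. The windows of the hosted genes, extended by 100 bp on each side, held 66.2 pooled relaxed summits and 21.1 optimal summits per 100 kb. The windows of the other snoRNA genes held 107 and 33.4. The rest of the host spans, 1723 kb outside all snoRNA windows, held 15 pooled relaxed and 0.580 optimal summits per 100 kb. These values were above the 10.4 and 0.387 of the nuclear chromosomes as a whole and far below those of the snoRNA windows. A promoter window ran from 1000 bp before to 500 bp after a transcript start. The host had a pooled relaxed peak in its own promoter window for 23 of 47 linked hosted genes (48.9%). The same held for 86 of 169 unlinked ones (50.9%). For 10 of the 47 linked genes the linking summit itself lay in the promoter window of the host, so it can be the peak counted. Unlinked genes have no such summit, so these shares cannot tell whether hosts of linked genes differ from the others.

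Other classes of small noncoding gene within protein-coding genes give a scale for these shares. Among hosted transfer RNA genes 41.7% of 290 had a pooled relaxed summit and 6.55% an optimal one. Hosted snRNA genes stood at 20.6% of 63 and 3.17%. For hosted microRNA genes the shares were 7.55% of 106 and 0, and for hosted piRNA genes they were 1.79% of 5878 and 0. Hosted noncoding genes of unspecified class (ncRNA), with a median length of 139 bases, stood at 9.17% of 3393 and 1.12%. By the pooled relaxed list the hosted snoRNA genes were thus placed below transfer RNA genes and beside snRNA genes, and by the optimal list beside transfer RNA genes. Genes of these classes differ in length, which sets how wide a window each offers.

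**Figure D1:**
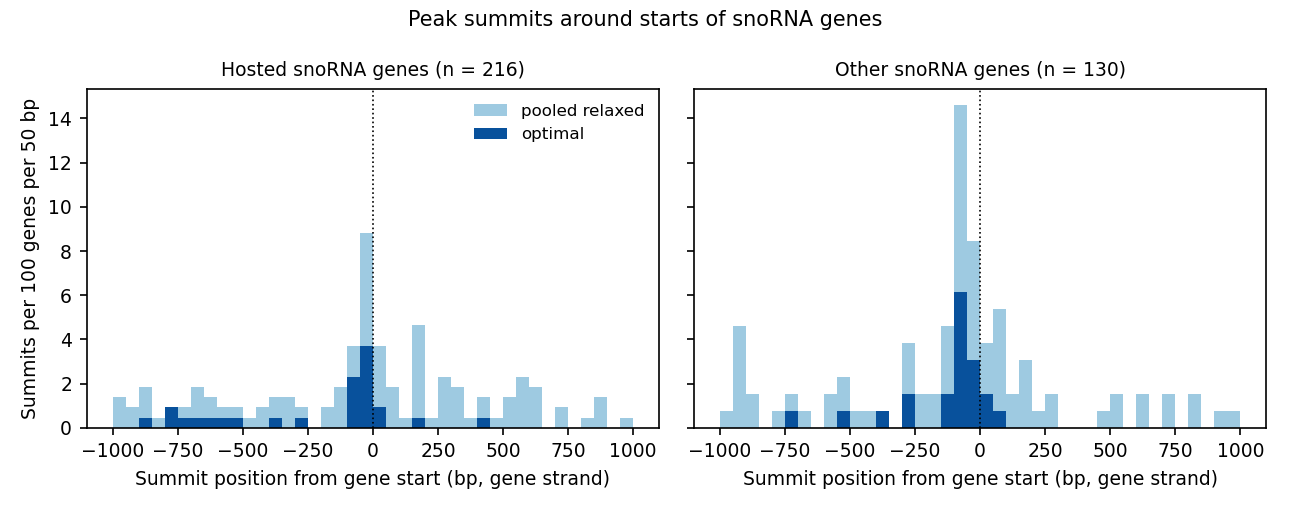
Summits per 100 genes in bins of 50 bp around the first base of hosted snoRNA genes (left) and other snoRNA genes (right), on the strand of the gene, with pooled relaxed summits in pale and optimal summits in dark bars. In hosted genes the fullest bin is the 50 bases before the start, with 19 pooled relaxed and 8 optimal summits, and in the other genes it is the bin from 100 to 51 bases before the start.

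Within the members, summits gathered just before the start of the snoRNA. The 50 bases before the first base held 19 pooled relaxed summits, the 50 before those held 8, and the first 50 bases of the genes held 8. The bin from 150 to 199 bases after the start held 10. Positions below are counted from the first base of the snoRNA as 0, with negative values upstream. Of the 16 genes linked to an optimal peak, 13 had the summit upstream of the start, 3 inside the gene and 0 downstream, with a median position of -17. For the 31 genes linked only in the relaxed list the counts were 14 upstream, 9 inside and 8 downstream, with a median position of 13. Of the 47 summits, 33 (70.2%) lay outside every promoter window of a protein-coding gene, and 10 lay in a promoter window of the host. A further small RNA gene of unspecified class was annotated within 100 bp of 17 of the 47 summits, and which of the neighbours a peak belongs to was not tested.

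ZK994.7 had the highest signal of any member. This snoRNA gene of 67 bases (chrV:8500579-8500645, plus strand) lies in intron 17 of 21 of pxn-1, which encodes a peroxidasin of the extracellular matrix. Its peak had a signal of 233.6 in the pooled list, where it ranked 23, and of 135.1 in replicate 1, with the summit at -39. Replicate 2 listed no peak within 100 bp of it, and its nearest summit there was 36517 bp away. The strongest member was thus listed in 1 of the 2 replicates, although it stands in the optimal list.

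frm-7, which encodes a FERM domain protein of the membrane skeleton, was the 1 host of 46 with more than 1 linked member. C51F7.4 (chrV:12303599-12303693) and C51F7.3, shown above, lie next to each other in this host and shared 1 pooled peak with a signal of 207.4, which ranked 30. The summit lay at 26 within C51F7.4 and at -83 of C51F7.3. In replicate 1 C51F7.4 had a peak of signal 111.0 and C51F7.3 a separate one of 21.8, while in replicate 2 both were linked to a peak of 91.5. The box A and box B matches before C51F7.3 lie in C51F7.4 itself. C51F7.4 is 1 of 4 members that hold matches to both boxes inside the annotated gene, it overlaps a protein-coding exon, and its share of the binding cannot be told apart from that of C51F7.3.

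Like C51F7.3, 3 further members shown above carried both boxes upstream. M106.6 (chrII:10840317-10840391), in intron 13 of 14 of mix-1, a condensin gene that also acts in dosage compensation, had signals of 116.7 for the pooled peak, 45.7 in replicate 1 and 59.7 in replicate 2. F55A11.10 (chrV:11782992-11783082), in the last intron of F55A11.6, had 116.2, 44.9 and 71.0 in the same lists. T03F7.8 (chrV:11314258-11314332) lies on the opposite strand within intron 7 of 8 of cutl-18, a cuticlin-like gene, and had 114.5, 66.9 and 51. The pooled summits lay at -16, -7 and -51, so all were upstream of the snoRNA and within or beside the boxes. The peak at F55A11.10 also lay in the promoter windows of F55A11.6 and F55A11.11, while those at M106.6 and T03F7.8 lay in no promoter window. A further small RNA gene was annotated within 100 bp of the summits of F55A11.10 and T03F7.8, so neither of these peaks can be given to the snoRNA alone.

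ZK484.9, a gene of 68 bases on the strand opposite to haf-9, a half-molecule ABC transporter gene, also had both boxes. Its signals were 115.9 for the pooled peak, 37.2 in replicate 1 and 74.2 in replicate 2, with the summit at 15. A further small RNA gene was annotated within 100 bp of this summit. smy-2, a snoRNA gene by biotype in the last intron of C33A12.3, was the linked member with both box A and the paired element, which overlap there. Its signals of 105.4, 46.5 and 62.0 came from summits at -18 in all 3 lists. None of the other 15 optimal members had the same summit position in every list. The peak lay in the promoter windows of C33A12.3 and C33A12.4.

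Box A without box B was found before 6 more members of the optimal list, smy-2 included. C27H5.9, in the first intron of pdl-1, had signals of 110.9 for the pooled peak, 52.2 in replicate 1 and 55.5 in replicate 2. C27H6.5, in intron 7 of 11 of unc-41, a gene for recycling of synaptic vesicles, had 86 in the pooled list and 49.8 in replicate 2. The nearest summit of replicate 1 to C27H6.5 was 124 bp away, just past the 100 bp allowed, with a signal of 37.1. W08G11.6, shown above, was the 1 gene of the H/ACA class in the optimal list, with signals of 84.8, 31.8 and 49.9. Y38F2AR.14, in intron 5 of 13 of Y38F2AR.12, had 84.5, 34.8 and 44.8, and its summits at -7, -8 and -7 in the pooled, first and second list were nearly in the same place. F38E11.14, in the last intron of cng-3, a cyclic nucleotide-gated channel gene, had the lowest pooled signal of the optimal members, 81.7, with 34.2 in replicate 1 and 48.2 in replicate 2. Its peak lay in the promoter window of wrt-3, a gene of the hedgehog-like warthog family, and that of C27H5.9 in the window of its host pdl-1. Within 100 bp of the F38E11.14 summit a further small RNA gene was annotated.

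C08D8.3 (chrV:8349108-8349187), in intron 7 of 10 of C08D8.1, joined ZK994.7 and smy-2 as the members of the optimal list with the paired element. It had signals of 85.6 for the pooled peak, 55.4 in replicate 1 and 28.9 in replicate 2. The remaining 2 optimal members besides C51F7.4 had neither box A nor the paired element, and both overlap a protein-coding exon. F39B2.14, within tmem-107, a ciliary transition zone gene, had signals of 100.2, 59.4 and 56.4 near the starts of tmem-107 and the ribosomal protein gene rps-26. Its summits lay at -95 in the pooled list and in replicate 1 and at 80 in replicate 2. F07A11.15, within din-1, which encodes a nuclear cofactor of the hormone receptor DAF-12, had 86.8, 49.6 and 43.9 with the summit at 189, in a promoter window of din-1. These 2 genes were the longest of the 16 and among the 6 whose peaks lay in promoter windows. The summit at F07A11.15 also had a further small RNA gene annotated within 100 bp.

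**Figure D2:**
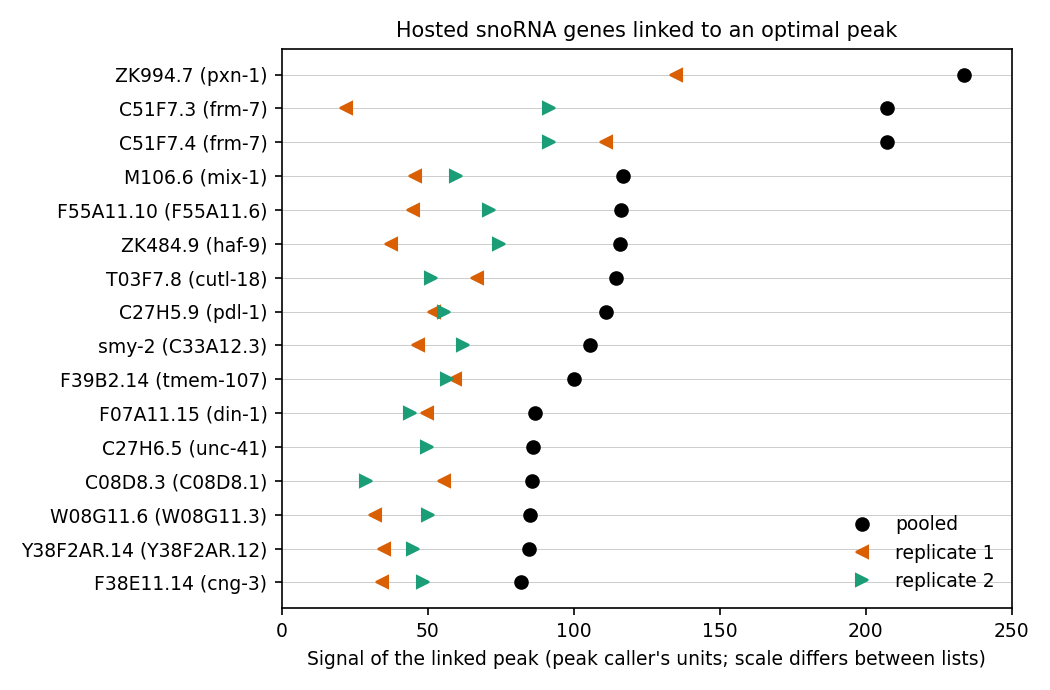
Signal of the linked peak, in the peak caller's units, for the 16 hosted snoRNA genes linked to an optimal peak, with the host in brackets. Circles are the pooled list, left-pointing triangles replicate 1 and right-pointing triangles replicate 2. ZK994.7 has no triangle for replicate 2 and C27H6.5 none for replicate 1, and the pooled signals run between 81.7 and 233.6.

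Just below the optimal list stood T06D8.11, in intron 2 of 7 of plpr-1, with signals of 78.1 for the pooled peak, 39.2 in replicate 1 and 37.4 in replicate 2. W04D2.7, in an intron of the innexin gene inx-11, had 74.7, 34.4 and 42.9. Both carry the paired element shown above, and neither peak lay in a promoter window, but at least 1 further small RNA gene was annotated within 100 bp of each summit. Between them in pooled signal stood T04A8.17, on the strand opposite to ppat-1, with 75.2, 36.0 and 40.4. It had neither box A nor the paired element, and its summit at -16 lay in no promoter window. Further members of the relaxed list alone were C16D9.11 in rol-3, a receptor tyrosine kinase gene (63.4 in the pooled list), K11C4.6 in unc-70, the beta-spectrin gene (70.5), and Y49E10.36 in his-72, a histone H3.3 gene (37.0). Over the 31 members linked in the relaxed list alone the signal ran between 27.6 and 78.1 with a median of 43.0, against a median of 33.5 for all nuclear peaks of that list.

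The upstream matches were counted over the 120 bases before each gene, on its own strand. Box A was written as TGG, then any 3 bases, A, any 2 to 4 bases and GG. Box B was written as GTTCNANNC. These patterns and the paired element were written after the upstream sequences had been seen, so the counts are descriptions. Box A was found before 22 of 47 linked members (46.8%), 16 of 169 unlinked members (9.47%) and 1.93% of 19973 protein-coding genes. Box A followed by box B was found before 9 linked members (19.1%), 3 unlinked members (1.78%) and 0.0150% of protein-coding genes. The paired element was found before 13 linked members (27.7%), 4 unlinked members (2.37%) and 0.0401% of protein-coding genes. It was also found before 16.3% of 129 snRNA genes, and before 0.192% of all nuclear genes.

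Box A or the paired element was thus found before 34 of the 47 linked members (72.3%) and 19 of the 169 unlinked members (11.2%). On the opposite strand of the same windows the matches were 4 of 47 (8.51%) and 21 of 169 (12.4%). The patterns had been written for the strand of the snoRNA, so the difference between strands is no test. The other snoRNA genes gave a like contrast, 25 of 44 linked (56.8%) and 12 of 86 unlinked (14.0%). Read the other way, a pooled relaxed summit lay at 34 of the 53 members with either element (64.2%, 50.7% to 75.7%) and at 13 of the 163 with neither (7.98%, 4.72% to 13.2%). The share at members with neither element was below the 13.5% of all nuclear genes, which differ from snoRNA genes in length. Its interval held the 9.17% of hosted ncRNA genes, which are closer to the members in length. Among the 17 members with the paired element 13 were linked, and the 4 not linked were Y48A6C.10 in sup-35, Y73B6A.14 in Y73B6A.1, a gene in pkd-2 and C02C6.13 in lron-3.

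The spacing of the paired element was narrow. Before linked members its first base lay 54 to 80 bases upstream of the snoRNA, with a median of 58, and in 9 of 13 it lay 57 to 59 bases upstream. Before the 4 unlinked members it lay 56 to 61 bases upstream. Box A began 40 to 99 bases upstream of linked members with a median of 59, and 20 of 22 began within 45 to 70 bases, against 10 of 16 before unlinked members. Box B began 9 to 44 bases upstream of linked members, with a median of 15. The summit lay within 50 bp of the paired element in 9 of 13 linked members and within 50 bp of box A in 15 of 22. Linked members were chosen for a summit within 100 bp, a distance that also holds these elements. Part of this nearness thus follows from the linking rule, and no background rate was counted.

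**Figure D3:**
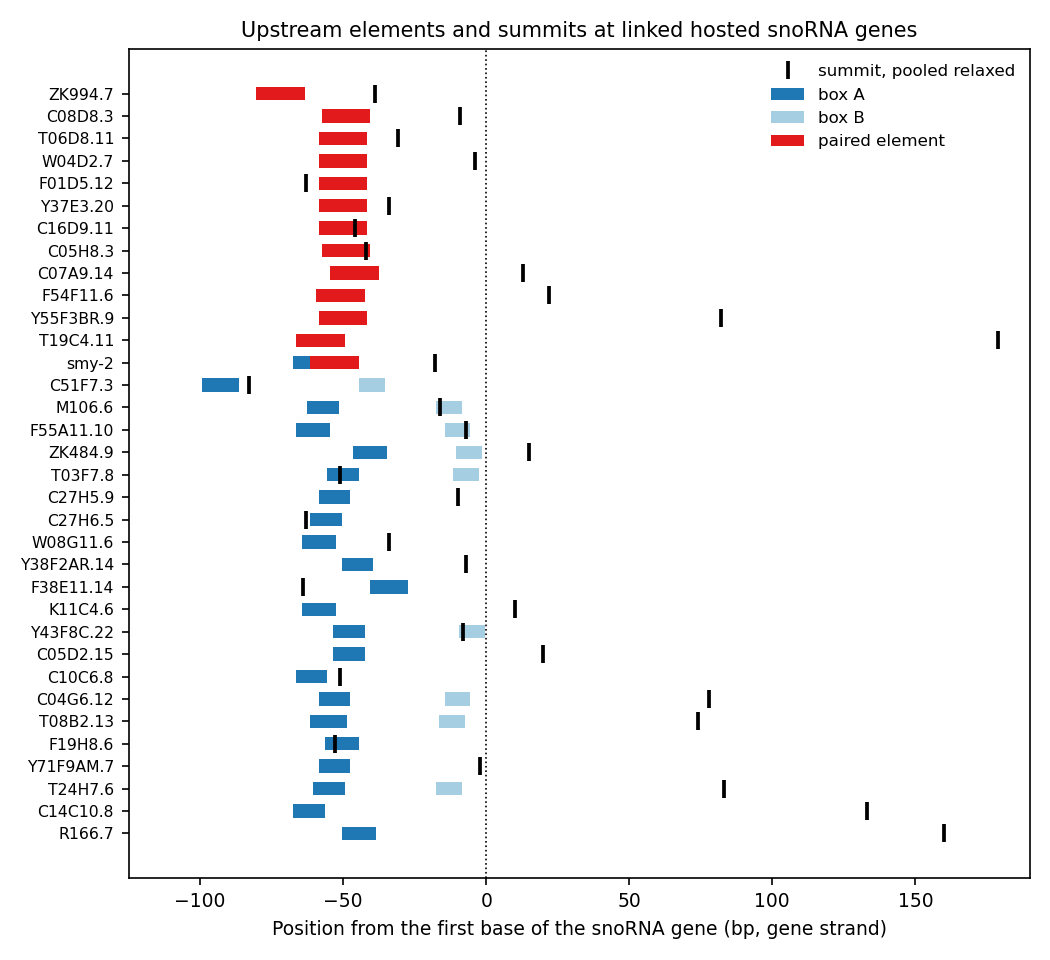
Positions of upstream elements before the 34 linked hosted snoRNA genes with box A or the paired element. Box A is dark blue, box B pale blue and the paired element red. A black tick marks the pooled relaxed summit nearest the gene, whose first base is at 0. The paired element of 9 of 13 genes begins 57 to 59 bases upstream, and the ticks lie between positions -83 and 179.

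Length went with the links. Members up to 100 bases long were linked in 22 of 63 cases (34.9%, 24.3% to 47.2%), those above 100 and up to 150 bases in 17.8% of cases (18 genes) and longer ones in 7 of 52 (13.5%). The optimal list was linked to 12, 2 and 2 genes of these classes. Genes linked to an optimal peak had a median length of 75.5 bases, those linked in the relaxed list alone 126 bases and unlinked ones 129 bases. The order was against the width of the window searched, which grows with the gene. Among the other snoRNA genes the linked shares were 22 of 32, 12 of 40 and 10 of 58.

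**Figure D4:**
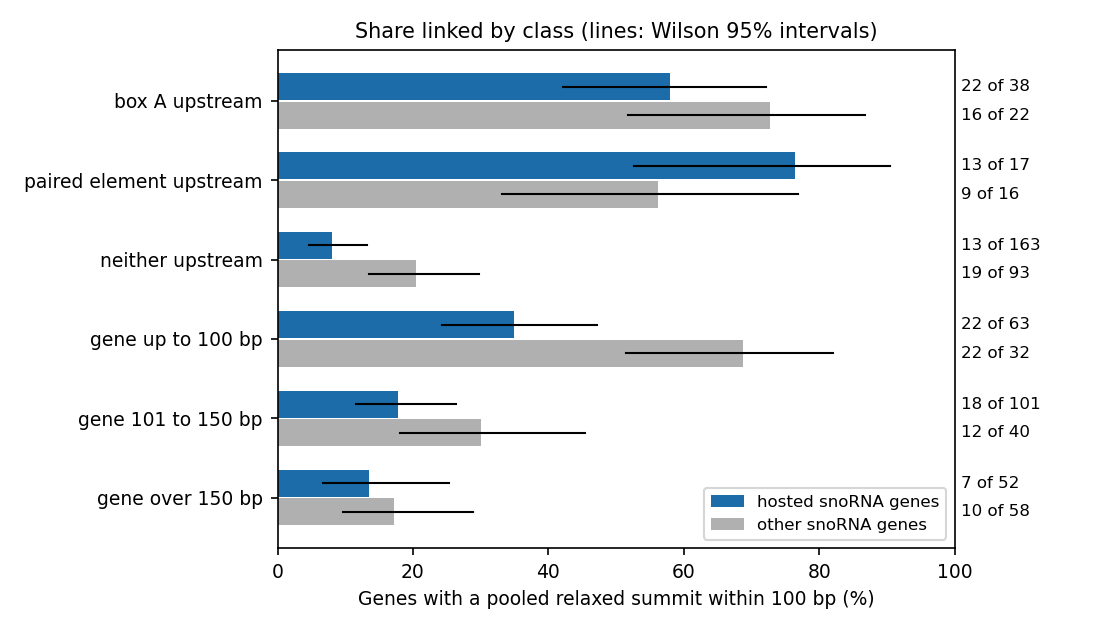
Share of hosted (blue, upper bar) and other (grey, lower bar) snoRNA genes with a pooled relaxed summit within 100 bp, by upstream element and by gene length, with Wilson 95% intervals as lines and counts at the right. Hosted genes with neither element are linked in 7.98% of cases, below every other class drawn.

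By the fixed sequence rule only 9 members were classed as box C/D, of which 3 were linked, and 53 as H/ACA, of which 12 were linked (22.6%). The other 154 members were left unclassed, because the rule asks for an exact box C near the start, and 32 of them were linked (20.8%). Box D (CTGA) in the last 15 bases, a looser sign of box C/D genes taken up after the sequences were seen, was found in 49 members, of which 19 were linked (38.8%, 26.4% to 52.8%). Among the other snoRNA genes it was found in 28, of which 23 were linked (82.1%, 64.4% to 92.1%). The interval of the hosted genes with box D lay below that of the other genes with it.

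Ribosomal protein genes are common homes of intronic snoRNAs in animals. Host classes were set by gene name alone, so a ribosomal protein or translation factor host under another name counts among the other hosts. Of 19 members in 13 hosts named rpl-, rps- or rla-, 2 were linked in the relaxed list (10.5%, 2.94% to 31.4%). That interval holds the share of all members. The linked members were B0412.7 in rps-29 with a signal of 34.9 and C16A3.11 in rps-13 with 30.2. Both summits lay past the end of the snoRNA, at 173 and 228, the first in the promoter window of trpp-11. B0412.7 was linked in replicate 2 alone and C16A3.11 in neither replicate. In the optimal list 0 of the 19 were linked. Of 5 members in hosts with the translation factor names eif-, eef-, iff- or ife-, 0 were linked, where the Wilson interval reaches 43.4%. Whether each host so named acts in translation was not checked. Of the 192 members in other hosts 45 were linked (23.4%). A host on the same strand was present for 183 members, of which 38 were linked (20.8%), and the 33 members with hosts on the opposite strand alone had 9 links (27.3%). In the relaxed list the share was 17 of 68 (25%) for members in introns up to 300 bp and 27 of 110 (24.5%) for those in longer introns. In the optimal list it was 8 of 68 (11.8%) and 6 of 110 (5.45%), and that difference was not tested. By chromosome the share was highest on V, with 15 of 39 (38.5%, 24.9% to 54.1%), and on X none of 10 members was linked, where the Wilson interval reaches 27.8%.

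Short motifs within 50 bp of the strongest summit were counted on either strand over the 46 distinct summits of the members. GAGAGA, which was found at 28.1% of all 388 optimal summits, was found at 5 member summits (10.9%), near its 9.89% of all 10461 pooled relaxed summits. The box B core GGTTCGA was found at 4 member summits (8.70%), at 3 of 44 summits of other snoRNA genes (6.82%) and at 1.42% of all pooled relaxed summits. TAATTA, a core of many homeodomain sites, was found at 0 member summits, at 2 of 44 summits of other snoRNA genes, at 6.35% of all pooled relaxed summits and at 1.55% of optimal summits. TGATAC was found at 2 member summits (4.35%), against 2.85% of all pooled relaxed summits. TGATAA was found at 3 member summits (6.52%), against 7.01%, so both shares were near those of the whole list. No match says only that these letters are not in the window.

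The proteins that work with snoRNAs were looked at through their own promoter windows. Of 21 matched genes for snoRNP proteins, their assembly and nucleolar factors, 8 had a pooled relaxed summit there (38.1%), against 20.1% of 19973 protein-coding genes. One of the 21 had an optimal summit, against 1.41% of protein-coding genes. It was ruvb-2, an ATPase gene of snoRNP assembly, with signals of 90.1 for the pooled peak, 40.5 in replicate 1 and 41.3 in replicate 2. The core box C/D protein genes nol-56 (73.0 in the pooled list), fib-1 (44.8), which encodes fibrillarin, and nol-58 (38.9) were linked, as was nola-3 of the H/ACA particle (46.8). Among the genes with no pooled relaxed summit were the dyskerin gene dkc-1, snu-13, garr-1, Y48A6B.3 and ruvb-1. Peaks were also linked to ncl-1, smn-1 and xrn-2, with signals of 41.4, 42.4 and 30.1. Replicate 2 listed no summit in the window of fib-1, and replicate 1 none in that of xrn-2.

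Among the other snoRNA genes, 15 were linked to an optimal peak. The 10 with the highest pooled signal were W06H8.17 (150.9), T06C12.16 (144.9), Y75B12B.12 (130.5), W03C9.9 (129.5), T02E1.9 (123.3), Y53F4B.47 (122.8), ZK265.10 (113.8), F59C6.15 (105.2), T26A8.6 (104.4) and Y67A10A.14 (99.7). Over all optimal links the median signal was 108.2 for the 16 hosted genes and 105.2 for the 15 others, and the ranges, 81.7 to 233.6 and 83.1 to 150.9, overlapped. The median summit position was -17 in the hosted genes and -57 in the others. Box A or the paired element stood before 13 of the 16 hosted genes and 12 of the 15 others.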

How the data were processed

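The deposited peak lists were made by the authors from 2 biological replicates. The signal of each peak is the value that the authors' peak caller deposited, and it was used as it stands, within a list only. Aligner, caller and thresholds, not given in the sources used here, could not be weighed. Control reads were not analysed here, and the lists on build ce10 were not used.

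Genes came from Ensembl release 115 on WBcel235, the assembly of build ce11, and sequence from the RefSeq copy. A gene was linked to a peak when the summit lay inside it or within 100 bp, and only transcripts of protein-coding biotype gave promoter windows and exons. Shares have Wilson 95% intervals, which cover counting error only. Scripts ran in Python 3.11.15 with numpy 2.4.6, scipy 1.17.1 and matplotlib 3.10.9, and linking and motif search were tested on simulated data. The members, lists and rules were chosen with earlier results of these data known. Every member linked to an optimal peak was named, with the 10 highest signals, members of hosts with 2 or more links, and the 10 highest other snoRNA genes. Further members of the relaxed list were chosen after their values were seen. Of the snoRNP list, 3 names had no match, and gar-1 was left out because in C. elegans that name is a receptor gene.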

Additional observations from a re-analysis of the deposited data

How the results depend on the processing

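Shares followed the distance allowed. With summits inside the gene only, 5.56% of hosted genes were linked in the pooled relaxed list, 1.39% in the optimal list and 1.85% in both replicates, against 10% of other snoRNA genes in the relaxed list. Within 50 bp the relaxed shares came close to each other, at 17.1% of hosted and 19.2% of other snoRNA genes. Within 250 bp the hosted shares were 28.2% (relaxed) and 18.5% (both replicates). Within 500 bp they were 37.5% and 25%, against 46.9% of other genes in the relaxed list. The relaxed share in hosted genes was below that of other genes at every distance tried. With 1 replicate's list in place of the pooled one, the median summit position ran between -13 and -7, and the median signal between 30.9 and 34.4, on scales that differ from the pooled list. Chosen after the data were seen, the opposite strand gave either element before 8.51% of linked members, and genes without an optimal link had one in 20% of cases. Under the alternatives 44 values stayed within the interval or limit set for them and 15 did not, and no median changed sign. With 2 libraries of unknown depth, absence from a list is no measure of absence of binding.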

Other observations

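The paired element was also searched across the nuclear chromosomes on both strands, where it occurred 1347 times. Of the 33 occurrences within 120 bases upstream of a snoRNA gene, 18 (54.5%) had a pooled relaxed summit within 100 bp and 6 (18.2%) an optimal one. Of the 20 upstream of an snRNA gene, 6 (30%) had a pooled relaxed summit and 2 (10%) an optimal one. Of the 1278 with no small RNA gene downstream, 47 (3.68%) had a pooled relaxed summit and 1 an optimal one. The pattern had been written from snoRNA upstream sequences, so these are descriptions.

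Among the pooled relaxed signals of linked members none lay between 47.9 (C05H8.3 in ckk-1, rank 1603) and 62.5 (C05D2.15 in madf-11, rank 753).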
